A study of Arabidopsis thaliana with 4 samples.

Results

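The genes described here lie at the ends of the chromosomes of Arabidopsis thaliana, the small annual plant used as a model for flowering plants. They were chosen by their locus numbers, which count along each chromosome from top to bottom, so the rule uses position and no measured value. All genes with a probe for a single gene were taken whose locus begins with AT1G01, AT1G02, AT1G79, AT1G80, AT2G47, AT2G48, AT3G01, AT3G02, AT3G62, AT3G63, AT4G39, AT4G40, AT5G01, AT5G02, AT5G66 or AT5G67. HTR12, AT4G40040, LHCB4.1 and ICU2 fall in these 16 blocks and were left out by the rule. This gave 549 of the 9253 genes measured with a named probe (5.93%), against 8704 other genes. They cover 8 ends, since the rule leaves out the tops of chromosomes 2 and 4. The array's named probes reached 38.2% of the 1439 protein-coding loci in these blocks and 33.7% of the 27432 in the whole genome, so most end genes were not measured here.

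The study compared RNA of 4-week-old plants of the ecotype Nossen, grown on MS medium, on 2-colour oligonucleotide arrays. The mutants were fas1-2, with a mutation in the p150 subunit of chromatin assembly factor 1 (CAF-1), and fas2-2, with a mutation in its p60 subunit, each set against wild type. The irradiated plants were wild type that had received gamma-rays, 100 Gy at 300 Gy/h, and were frozen 6 h or 12 h later, each set against non-irradiated wild type. Each of the 4 conditions had 1 array, with the mutant or irradiated RNA always in the red dye (Cy5) and the wild-type control in the green dye (Cy3). Nothing in the labels says that RNAs came from separate cultures, how many plants were pooled, how many generations the mutants had been kept, or whether arrays shared a control RNA. The p-values below therefore measure only the spread between these arrays. The tissue is called rosette leaves in the sample labels and seedlings without roots in the design text. Ratios are on the log2 scale, mutant or irradiated over control, and their sign and base rest on reading the deposited values as log10 of red over green.

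Chromosome ends carry telomeres, repeats with bound proteins that keep the end from being treated as a break. CAF-1 is a chaperone that hands histones H3 and H4 to DNA behind the replication fork, and Arabidopsis plants without it are known to lose telomere repeats and ribosomal RNA genes over generations. Silencing of genes close to a telomere is best known from Saccharomyces cerevisiae. The ribosomal RNA gene arrays of Arabidopsis sit at the tops of chromosomes 2 and 4. The number of arrays and the spread between repeated spots limit the precision: 48 transcripts spotted more than once gave a pooled SD of 0.24 to 0.28 on the log2 scale. The arrays' deposited medians lay between -0.0014 and -0.0004, so each array had been centred and a shift of all genes together could not be seen. Markers of other tissues stood apart on some arrays: the tapetum genes AMS, ATA27 and SHT stood at 3.42, 2.83 and 3.39 at 12 h. At 6 h they stood at 1.73, -0.37 and -1.11, in fas1-2 at -1.54, -0.62 and 0.00, and in fas2-2 at 0.00, -1.27 and 0.00. The root gene EXPA7 stood at 0.73 in fas2-2, with PYK10 above it, and on the other arrays both lay between -0.40 and 0.34. Their part in the values of the end genes was not tested.

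As a set, the end genes had medians close to those of the other genes on every array. Their median log2 ratio was -0.02 in fas1-2, against 0.00 for all other genes. In fas2-2 it was -0.01, and -0.01 for the other genes. After irradiation it was 0.00 at 6 h, against 0.00, and 0.01 at 12 h, against 0.00. These medians have no replicate and no test.

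The end genes also split almost evenly around 0. In fas1-2, 245 of 549 stood above 0 (44.6%), against 49.6% of the other genes. In fas2-2, 254 did (46.3%), against 48.3%. At 6 h, 273 did (49.7%), against 50.1%, and at 12 h, 293 did (53.4%), against 51% of the other genes. The gap was widest in fas1-2, where end genes were more often below 0, and at 12 h it ran the other way. Below 0 on all 4 arrays were 103 end genes (18.8%), against 15% of the other genes. Above 0 on all 4 were 84 (15.3%), against 14.3%. The dyes were not swapped, so a gene's dye effect would enter all 4 values. With 1 array per condition these shares have no replicate, and they are given without a test.

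The width of the distribution was also close to that of the other genes. The interquartile range of the end genes was 0.27 in fas1-2, 0.29 in fas2-2, 0.28 at 6 h and 0.25 at 12 h. For all other genes it was 0.29, 0.30, 0.28 and 0.23 in the same order. The values of end genes ran between -1.85 and 1.34 in fas1-2 and between -1.71 and 1.67 in fas2-2. They ran between -2.47 and 2.02 at 6 h and between -1.49 and 1.38 at 12 h.

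**Figure D1:**
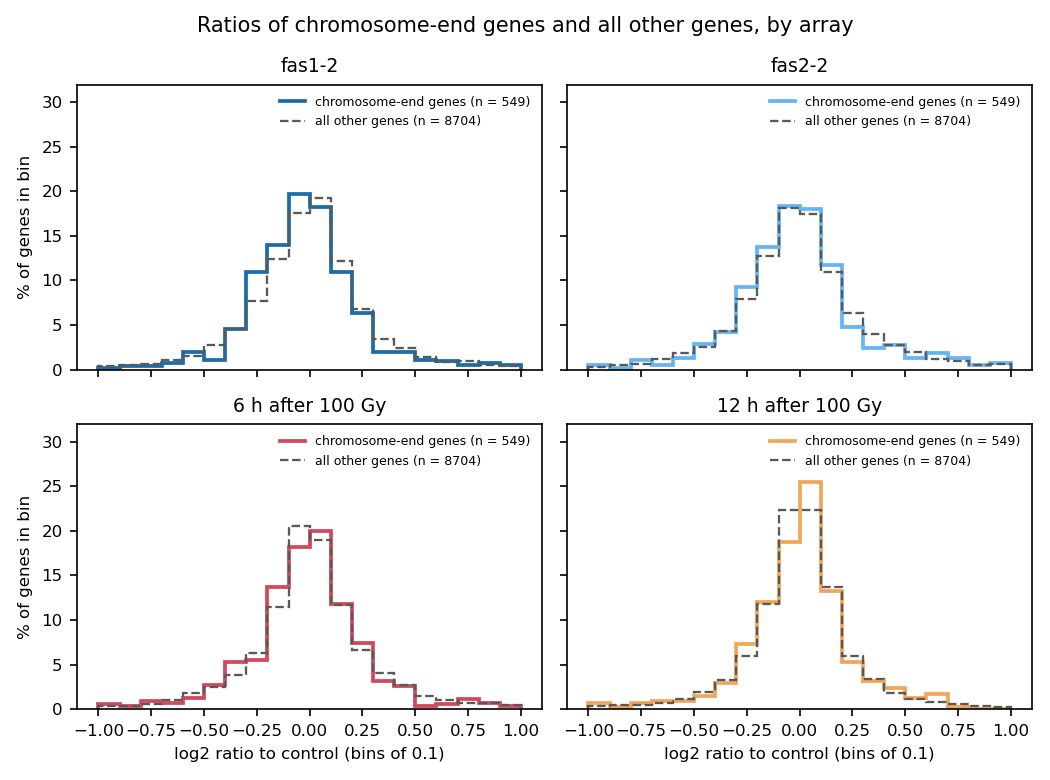
Share of genes (in percent, y axis) by log2 ratio to control (x axis, bins of 0.1) on each of the 4 arrays, for 549 chromosome-end genes (solid coloured line) and 8704 other genes (dashed grey line). Bins run from -1.0 to 1.0, and values beyond them are not drawn. Within the bins the outlines largely overlap on every array. The medians over all values lie between -0.02 and 0.01.

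The share of end genes at least 2-fold from control was slightly below that of all genes on each array; the differences were not tested. In fas1-2, 15 end genes passed 2-fold (2.73%), where 2.86% of all measured genes did. Of these, 7 were higher and 8 lower, beside 1.58% and 1.29% of all genes. In fas2-2, 14 passed (2.55%), where the share of all genes was 3.11%, with 7 higher and 7 lower (1.77% and 1.34% of all genes). At 6 h, 15 passed (2.73%), beside 2.89% of all genes, with 9 higher and 6 lower (1.88% and 1.01% of all genes). At 12 h, 8 passed (1.46%), beside 1.65% of all genes, with 5 higher and 3 lower (0.908% and 0.746% of all genes). Over the 4 arrays, 39 end genes (7.1%) passed on at least 1 array, close to the 8.03% of all genes. On 2 or more arrays 12 did (2.19%), beside 2.05% of all genes, and on 3 arrays GH3.9 alone (0.182%), beside 0.378%. None did on all 4, as 0.054% of all genes did.

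Few end genes were 4-fold or more from control. No end gene reached 4-fold in fas1-2 or fas2-2, where 34 and 35 of the other genes did (0.367% and 0.378% of all genes). At 6 h, 3 end genes did (0.546%), AT3G02120, AT5G66230 and AT4G39670, a higher share than the 0.27% of all genes. At 12 h none did, against 16 other genes (0.173% of all). Over all 4 arrays 3 end genes (0.546%) passed 4-fold at least once, beside 1.04% of all genes. Such counts are small, and none of these differences was tested.

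In the mutants, 1 end gene passed the test of limma across all 9253 genes. AT3G02900, which the reference annotation gives no symbol, stood at -1.43 in fas1-2 and -1.62 in fas2-2, against -0.24 at 6 h and -0.27 at 12 h. It was low on both mutant arrays and near control on both irradiated ones. It fell by 1.53 on the log2 scale (SE 0.0764, limma adjusted p = 0.0487), and was 1 of 11 genes called in the mutants (0.119% of all genes tested, and 0.0432% in the lower direction; 0.182% of end genes). The call rests on every array, since leaving out any 1 of the 4 gave a limma adjusted p of 0.161 to 0.249. It was also lost, at 0.0514, 0.0719 and 0.0595, with each array centred, with arrays scaled to the same spread, and with limma's robust variance.

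At an unadjusted p under 0.05, 110 end genes passed in the mutants (20%), beside 20.9% of all genes. Of these, 42 were higher and 68 lower, or 7.65% and 12.4% of the end genes, beside 9.59% and 11.3% of all genes.

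VTC4, the L-galactose-1-phosphate phosphatase of ascorbate synthesis, lies 2 measured genes before AT3G02900 in the order of loci and stood the other way. It was at 1.11 in fas1-2, at 1.15 in fas2-2, at -0.19 at 6 h and -0.04 at 12 h (limma adjusted p = 0.0575 for the mutants). AT3G02880, between them, stood at -0.10 and 0.21 in the mutants. AT3G02910, the next measured gene on the inner side, was at 0.64 in fas1-2, with 0.91 in fas2-2 (limma adjusted p = 0.114). The gene that passed the test thus stood low in both mutants between genes that stood at or above control in fas2-2. The stretch was picked after its values had been seen.

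5 end genes were at least 2-fold from control the same way in both mutants (0.911% of the end genes), beside 85 of all genes (0.919%). Both mutants were set against wild type, and a shared control RNA would enter both values. VTC4 and GH3.9 were the 2 that stood higher (0.364%, beside 0.486% of all genes). GH3.9, of the family of enzymes that join amino acids to auxin, was at 1.03 in fas1-2 and at 1.34 in fas2-2, with -0.11 at 6 h and -1.49 at 12 h (limma adjusted p = 0.215 for the mutants). AT3G02900, UPB1 and SIS were the 3 that stood lower (0.546%, beside 0.432% of all genes).

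UPB1, a bHLH transcription factor that sets the balance of proliferation and differentiation in the root through peroxidase genes, stood at -1.18 in fas1-2 and -1.71 in fas2-2. After irradiation it was at 0.01 and -0.07, next to control (limma adjusted p = 0.0807 for the mutants). SIS, a serine-rich protein named for its induction by salt, stood at -1.05 and -1.02 in the mutants, and at 0.60 at 6 h and -0.04 at 12 h (limma adjusted p = 0.125). UPB1 and SIS each stood lower on both mutant arrays than on either irradiated array, and neither passed limma.

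Other end genes were high in both mutants without reaching 2-fold in each. AT1G80130 was at 1.34 in fas1-2 and at 0.95 in fas2-2, with -0.39 at 6 h and -0.73 at 12 h (limma adjusted p = 0.0954 for the mutants). APL3, a large subunit of ADP-glucose pyrophosphorylase, the enzyme of the first committed step of starch synthesis, stood at 1.26 and 0.74, and at 0.49 and 0.27 after irradiation (limma adjusted p = 0.117). AT4G39230 stood at 0.92 in both mutants. AT3G01920 stood at 0.76 in fas1-2 and 1.08 in fas2-2. AT1G80870 and AT2G47010 complete the 8 highest by the smaller of the mutant values, with values between 0.74 and 0.86.

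The other low end genes included several from the bottom of chromosome 5. AT5G67000 stood at -1.85 in fas1-2 and -0.89 in fas2-2, the lowest value of any end gene in fas1-2. AT3G01270 stood at -1.64 and -0.92, and at -1.58 at 6 h and -0.55 at 12 h, so it was below control on all 4 arrays. SIS, described above, is also among the 8 lowest. AT5G66580, AT2G47050 and AT5G66790 complete them, with values from -1.02 to -0.63.

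**Figure D2:**
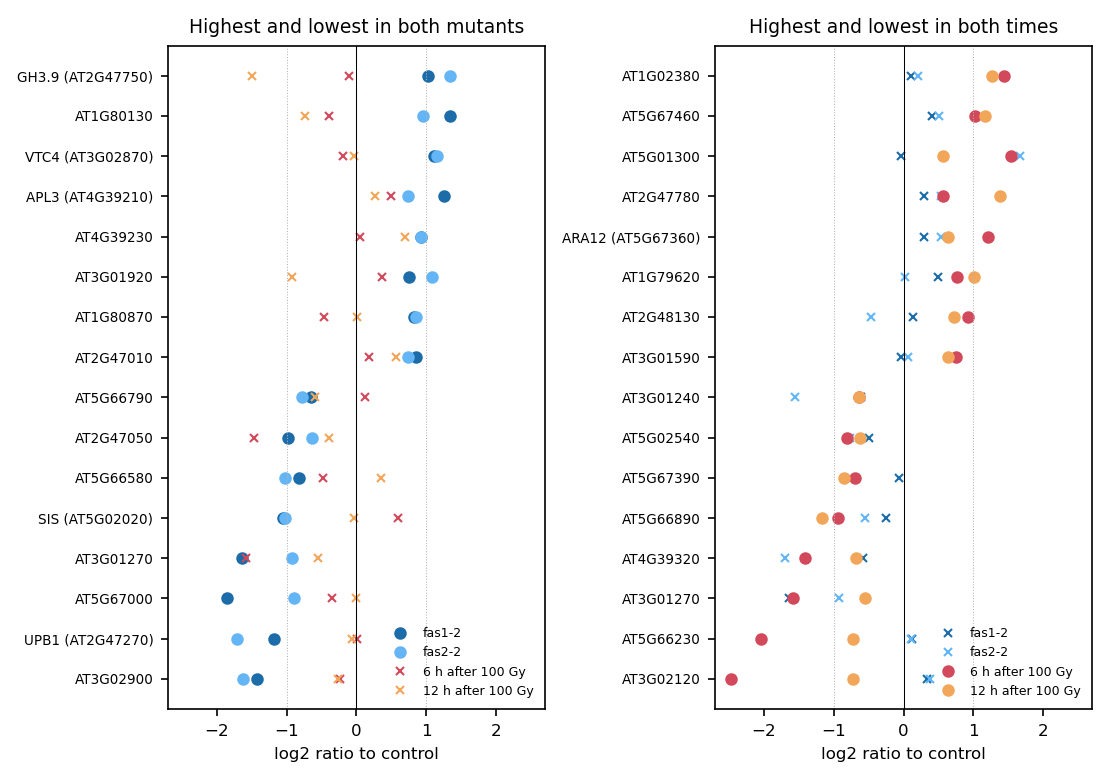
Log2 ratio to control (x axis) on each array for the 8 highest and 8 lowest chromosome-end genes by the smaller of the mutant values (left) and of the irradiated values (right). Filled circles are the arrays used for the ranking and crosses the arrays of the other setting; for most genes in the left panel the crosses lie between -1 and 1.

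A few end genes differed between the mutants. PDC3, a pyruvate decarboxylase of ethanol fermentation, was at -1.17 in fas1-2 and at 1.43 in fas2-2, with -0.17 and -0.29 after irradiation. It was 2-fold or more from control in opposite directions, as were 2 of all measured genes (0.0216%). AT5G01300 lies 2 measured genes away at the top of chromosome 5 and stood at -0.04 in fas1-2 and 1.67 in fas2-2. AT5G01320, between them, stood at 0.20 in fas1-2 and 0.09 in fas2-2. AT3G01720 stood at -1.19 and 0.50, and AT4G39270 at -0.58 and 1.06. In the opposite sense, AT4G39790 was at 1.32 in fas1-2 and at 0.00 in fas2-2, and AT4G39320 at -0.58 and -1.70. With 1 array per mutant these differences have no test.

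After irradiation no end gene passed limma, nor did any of the 9253 genes (0% called). At an unadjusted p under 0.05, 85 end genes passed (15.5%), beside 14.6% of all genes, with 41 higher and 44 lower (7.51% and 7.12% of all genes). The smallest limma adjusted p among the end genes was that of AT1G02380, 0.165.

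AT1G02380 stood at 1.44 at 6 h and 1.27 at 12 h, against 0.10 and 0.20 in the mutants (mean 1.36 after irradiation, SE 0.0766). AT5G67460 stood at 1.03 at 6 h and 1.16 at 12 h, and at 0.41 and 0.51 in the mutants (limma adjusted p = 0.197 for irradiation). These were the 2 end genes at least 2-fold from control the same way at both times (0.364% of end genes), beside 32 of all genes (0.346%). Both were higher after irradiation, as were 0.281% of all genes, and no end gene was 2-fold lower at both times, as 0.0648% of all genes were. Here too a shared control RNA would enter both values. Neither has a symbol in the reference annotation, so no role is given.

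Several end genes that stood far from control at 6 h stood nearer to it at 12 h. Most were named for being extreme at 6 h or for their change between the times. Lying nearer to control at 12 h can follow from that choice, and with 1 array per time it was not tested. AT3G02120 had the lowest value of any end gene, -2.47 at 6 h, and -0.72 at 12 h. AT5G66230 stood at -2.04 and -0.73. Both were at 0.10 to 0.38 in the mutants. AT4G39670 stood at 2.02 at 6 h and -0.45 at 12 h, and AT3G01830 at 1.79 and -0.38. AGL28, a MADS-box transcription factor, stood at 1.81 at 6 h and 0.42 at 12 h, with 0.64 and 0.67 in the mutants (limma adjusted p = 0.322 for irradiation). ARA12, a subtilisin-like protease known from the mucilage of the seed coat, stood at 1.21 and 0.63, with 0.30 and 0.54 in the mutants (limma adjusted p = 0.244).

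Other end genes stood far from control at 12 h. AT2G47780 stood at 0.57 at 6 h and 1.38 at 12 h. GH3.9 had the lowest value at 12 h, -1.49, beside -0.11 at 6 h. AT5G66890 stood at -0.94 at 6 h and -1.17 at 12 h, and AT1G01810 at 0.41 and -1.05. AT4G39790 stood at 0.45 and 1.21. No end gene was 2-fold from control in opposite directions at the 2 times, where 20 of all genes were (0.216%).

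For mutants minus irradiated, a difference in which a gene's dye effect cancels, no end gene passed limma, and none of all genes did (0%). At an unadjusted p under 0.05, 78 end genes passed (14.2%), beside 14.3% of all genes. The smallest limma adjusted p among the end genes was that of VTC4, 0.138.

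**Figure D3:**
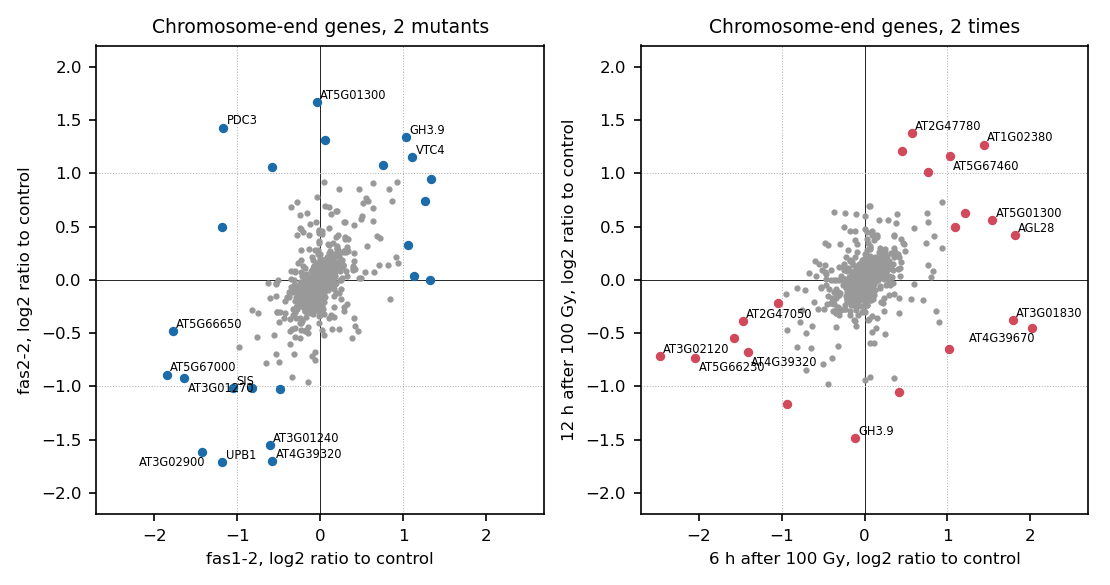
Log2 ratios of 549 chromosome-end genes, fas2-2 (y axis) against fas1-2 (x axis) on the left and 12 h (y axis) against 6 h (x axis) on the right; coloured points are at least 2-fold from control on 1 of the 2 arrays and dotted lines mark 2-fold. VTC4 and GH3.9 lie past 2-fold at upper right and AT3G02900, UPB1 and SIS at lower left in the mutants, while AT1G02380 and AT5G67460 lie past 2-fold at both times.

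A symbol was known for 74 of the 549 end genes, and 57 of them were put into 9 groups by role, after their values had been seen. None of the genes in any group passed limma in either setting. The count at an unadjusted p under 0.05 is given for each group as a description; of all genes, 20.9% passed that threshold in the mutants and 14.6% after irradiation.

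Among 7 transcription factors, 1 passed the unadjusted threshold in the mutants, UPB1, and 1 after irradiation, AGL28. The other 5 stood near control on most arrays. NGA3, a B3 factor of leaf margin and style growth and the first measured gene at the top of chromosome 1, stood between -0.11 and 0.03 on all 4 arrays. SHI, a RING-like zinc-finger factor of gibberellin and auxin responses, stood between -0.19 and 0.07. BZIP53, a factor of seed maturation genes, stood between -0.23 and 0.30, and ALC, a bHLH factor of fruit opening, was at 0.63 at 12 h and within 0.24 of control elsewhere.

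The auxin and peptide group held 4 genes, of which 2 passed the unadjusted threshold in the mutants and 0 after irradiation, beside 20.9% and 14.6% of all genes. Beside GH3.9 it held RALFL34, a RALF-like signalling peptide, at 0.63 in fas1-2 and 0.55 in fas2-2, with -0.48 at 6 h and 0.14 at 12 h. IAA15, an Aux/IAA repressor of auxin response, stood at -0.24 and 0.61 in the mutants and at 0.01 at 6 h and -0.94 at 12 h. IAA30, of the same family, stood between -0.29 and 0.18. GH3.9 and IAA15 were the lowest of the group at 12 h.

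Of 10 cell wall genes, 5 passed the unadjusted threshold in the mutants and 4 after irradiation, in both directions, beside 20.9% and 14.6% of all genes. EXPA9, an expansin that loosens walls, was at 0.68 in fas1-2 and at 0.41 in fas2-2, with -0.17 and 0.19 after irradiation. GH9B18, of the glycosyl hydrolase family that holds the cellulases, stood between -0.54 and -0.31 on all 4 arrays. TBL35, of the family of wall polymer acetyltransferases, stood between -0.38 and -0.17. CCR2, a cinnamoyl-CoA reductase of monolignol synthesis, stood between 0.03 and 0.35.

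VGD1, a pectin methylesterase needed for pollen tube growth, its neighbour VGDH1 and AT2G47050 lie side by side near the inner edge of the chromosome 2 blocks, and all 3 stood below control on every array. AT2G47050 was the lowest of them, at -0.98 in fas1-2, -0.63 in fas2-2, -1.47 at 6 h and -0.39 at 12 h. VGD1 stood at -0.36, -0.48, -0.75 and -0.28 in the same order, and VGDH1 at -0.11, -0.27, -0.10 and -0.43. The neighbour PTI1-4, on the outer side, was at 0.01 and -0.06 in the mutants and at -0.35 and -0.11 after irradiation. VGD1 and VGDH1 are close copies, so their probes may read each other's transcripts. The dyes were not swapped, so a gene's dye effect would enter all 4 values. Neither was tested.

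The 4 glycosyl and glutathione transferases that have a symbol stood above control in both mutants. End genes without a symbol were not grouped, so the 4 do not show how these families stood as a whole. In the mutants 2 of the 4 passed the unadjusted threshold, beside 20.9% of all genes in either direction and 9.59% higher. UGT72E2, which puts glucose on monolignols, stood at 0.19 and 0.65, and UGT72B3 at 0.71 and 0.14. GSTF4 stood at 0.20 and 0.32, and GSTL3 at 0.41 and 0.25 (limma adjusted p = 0.148, the smallest of the group). After irradiation they split, with UGT72B3 at -0.50 and -0.79 and UGT72E2 at 0.42 and 0.21.

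In the energy and carbon group of 7, 1 passed the unadjusted threshold in each setting, APL3 in the mutants and TAAC after irradiation. Beside APL3 and PDC3 it held TAAC, a thylakoid ATP/ADP carrier, at 0.09 in both mutants and at -0.38 at 6 h and -0.20 at 12 h. SDH1-1, the flavoprotein subunit of succinate dehydrogenase, was at -0.28 in fas1-2 and at 0.42 in fas2-2, and MPPBETA, a mitochondrial processing peptidase subunit, at -0.27 and 0.16. FRO1, a subunit of respiratory complex I, and VHA-A3, a subunit of the vacuolar proton pump, stood within 0.21 of control on all 4 arrays.

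VTC4 was grouped with STR18, SAMDC and LCD, and 3 of these 4 passed the unadjusted threshold in the mutants, beside 20.9% of all genes. STR18, a sulfurtransferase, was at -0.76 in fas1-2 and at -0.54 in fas2-2, with 0.10 and 0.15 after irradiation (limma adjusted p = 0.0954 for the mutants). SAMDC, S-adenosylmethionine decarboxylase of polyamine synthesis, stood at 0.33 and 0.27, and at 0.14 and 0.13 after irradiation. LCD, a cysteine desulfhydrase, was at -0.52 in fas2-2 and within 0.10 of control elsewhere.

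Among 5 chromatin and RNA genes, 1 passed the unadjusted threshold in the mutants. DIM1A, a ribosomal RNA dimethylase, was at -0.56 in fas1-2 and at -0.52 in fas2-2, with -0.13 and -0.19 after irradiation (limma adjusted p = 0.0884 for the mutants). SWI3A, a subunit of SWI/SNF remodelling complexes, stood at -0.27 and -0.11 in the mutants and at 0.11 and 0.20 after irradiation. SHL1, a reader of histone marks, stood between -0.09 and -0.03 on all 4 arrays, and THO7, of the THO complex of mRNA export, between -0.07 and 0.18.

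Protein folding and turnover gave 8 genes, with 2 at the unadjusted threshold in the mutants and 1 after irradiation. ATERDJ3B, a co-chaperone of the endoplasmic reticulum, stood at 0.02 and 0.15 in the mutants and at 0.83 at 6 h and 0.08 at 12 h. PUB54, a U-box ubiquitin ligase, stood at 0.70 at 6 h and between -0.19 and 0.02 elsewhere. ATL5, a RING-H2 ubiquitin ligase, stood between -0.41 and -0.23 on all 4 arrays. The 8 genes of membrane traffic and the cytoskeleton gave 0 at the unadjusted threshold in either setting. All stood within 0.28 of control except TPLATE, a subunit of an adaptor complex of endocytosis, at 0.62 in fas2-2.

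Genes that act at telomeres were listed as background to these ends, wherever they lie, and 3 of 19 were measured. TERT, the catalytic subunit of telomerase, stood at 0.26 in fas1-2, 0.00 in fas2-2, 0.02 at 6 h and 0.00 at 12 h. STN1, of the complex that caps the telomere's single strand, stood between -0.21 and 0.14. AT1G79950 is itself an end gene, and stood at 0.17 and -0.35 in the mutants and at 0.35 and 0.42 after irradiation. None of the 3 passed limma. Of the other lists, the clock list had GI alone of 16 measured, at -0.15 and -0.51 in the mutants and -0.46 and -0.25 after irradiation. The list of chromatin, replication and repair genes at the ends had 2 of 25 measured, AT1G79950 and SWI3A. Photosynthesis had 1 of 20 (AT1G80380), stress and detoxification 1 of 20 (GSTL3), transcription factors 2 of 28 (ALC and BZIP53), and growth and hormones 1 of 15 (IAA30). None of these passed limma.

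By end, medians stayed within 0.06 of 0 on every array. In fas1-2 they ran between -0.04 at the top of chromosome 3 and 0.01 at the bottom of chromosome 2, with 7 of 8 below 0. In fas2-2 they ran between -0.06 at the bottom of chromosome 2 and 0.01 at the bottom of chromosome 4, with 6 below 0. At 6 h they ran between -0.05 at the top of chromosome 5 and 0.03 at the bottom of chromosome 1, with 4 below 0. At 12 h, 2 of 8 were below 0, and the range was -0.02 to 0.03. The end that was lowest in one condition was not the lowest in the others, except that the top of chromosome 3 was lowest both in fas1-2 and at 12 h.

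The genes just inside the ends, 303 in the next block at each end, had medians of -0.03 in fas1-2, -0.03 in fas2-2, 0.01 at 6 h and 0.00 at 12 h. The 227 end genes of the outer blocks had medians of -0.02, -0.03, 0.00 and 0.01 in the same order, and the 322 of the inner blocks -0.03, -0.01, 0.00 and 0.00. Among these blocks there was no ordering of the medians with nearness to the end that was shared by the arrays of a setting. The genes nearest each end are given below.

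**Figure D4:**
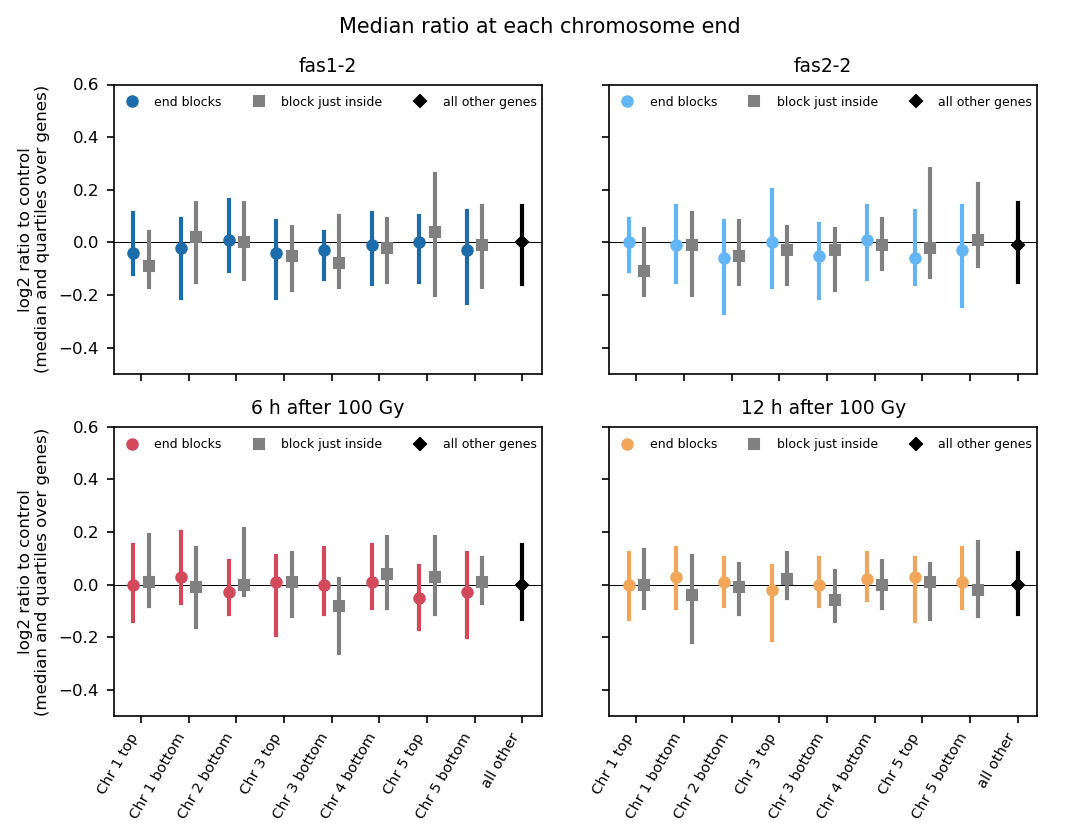
Median log2 ratio to control (symbols) with quartiles over genes (bars) on each array for each of the 8 chromosome ends (coloured circles), for the block just inside each end (grey squares) and for all other genes (black diamond, at the right). The medians of the ends lie between -0.06 and 0.03.

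Genes 2-fold from control on at least 1 array were counted by end, beside 8.03% of all measured genes. The bottom of chromosome 4 had 7 of 44 (15.9%), the bottom of chromosome 5 had 8 of 70 (11.4%), and the top of chromosome 3 had 9 of 92 (9.78%). The bottom of chromosome 3 had 1 of 65 (1.54%) and the bottom of chromosome 1 had 2 of 70 (2.86%). The outer blocks held 14 of 227 (6.17%) and the inner blocks 25 of 322 (7.76%). These are counts of few genes and carry no test.

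At the bottom of chromosome 4, several of these genes lie in a run between AT4G39200 and AT4G39320, and their values lay on both sides of control. APL3 stood at 1.26 in fas1-2, while its measured neighbours AT4G39200 and ATRER1A stood at -0.16 and 0.05. AT4G39320 stood at -1.70 in fas2-2 and AT4G39270 at 1.06, with AT4G39280 between them at -0.01. The run was picked after its values had been seen. At the top of chromosome 3, AT3G01240 stood at -0.61 in fas1-2, -1.55 in fas2-2, -0.64 at 6 h and -0.64 at 12 h. AT3G01270 lies 2 measured genes further in and was below control on all 4 arrays too. So was AT3G01260 between them, with values from -0.50 to -0.15. A gene's dye effect would enter all 4 values, which was not tested.

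The 5 measured genes nearest each end, 40 in all, had medians of -0.04 in fas1-2, -0.08 in fas2-2, 0.00 at 6 h and 0.00 at 12 h. For all genes outside the ends they were 0.00, -0.01, 0.00 and 0.00. Of the 40, 45%, 35%, 47.5% and 52.5% stood above 0 in the same order, beside 49.6%, 48.3%, 50.1% and 51%. In both mutants the 40 thus lay lower than the other genes, which was not tested. Among the 40, only AT4G40020 was 2-fold from control, at 1.31 in fas2-2. The last measured gene at the bottom of chromosome 2, AT2G48130, stood at 0.14 in fas1-2, -0.46 in fas2-2, 0.93 at 6 h and 0.73 at 12 h, so it was above control at both times. The last at the bottom of chromosome 5, AT5G67630, stood at -0.18 and -0.08 in the mutants and at 0.37 and 0.26 after irradiation. At the top of chromosome 5, AT5G01010 stood at -0.38 and -0.16 in the mutants and at 0.03 and -0.24 after irradiation. At the top of chromosome 3 and the bottom of chromosome 4 the first genes, AT3G01015 and AT4G40080, stood within 0.23 of control on all 4 arrays.

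**Figure D5:**
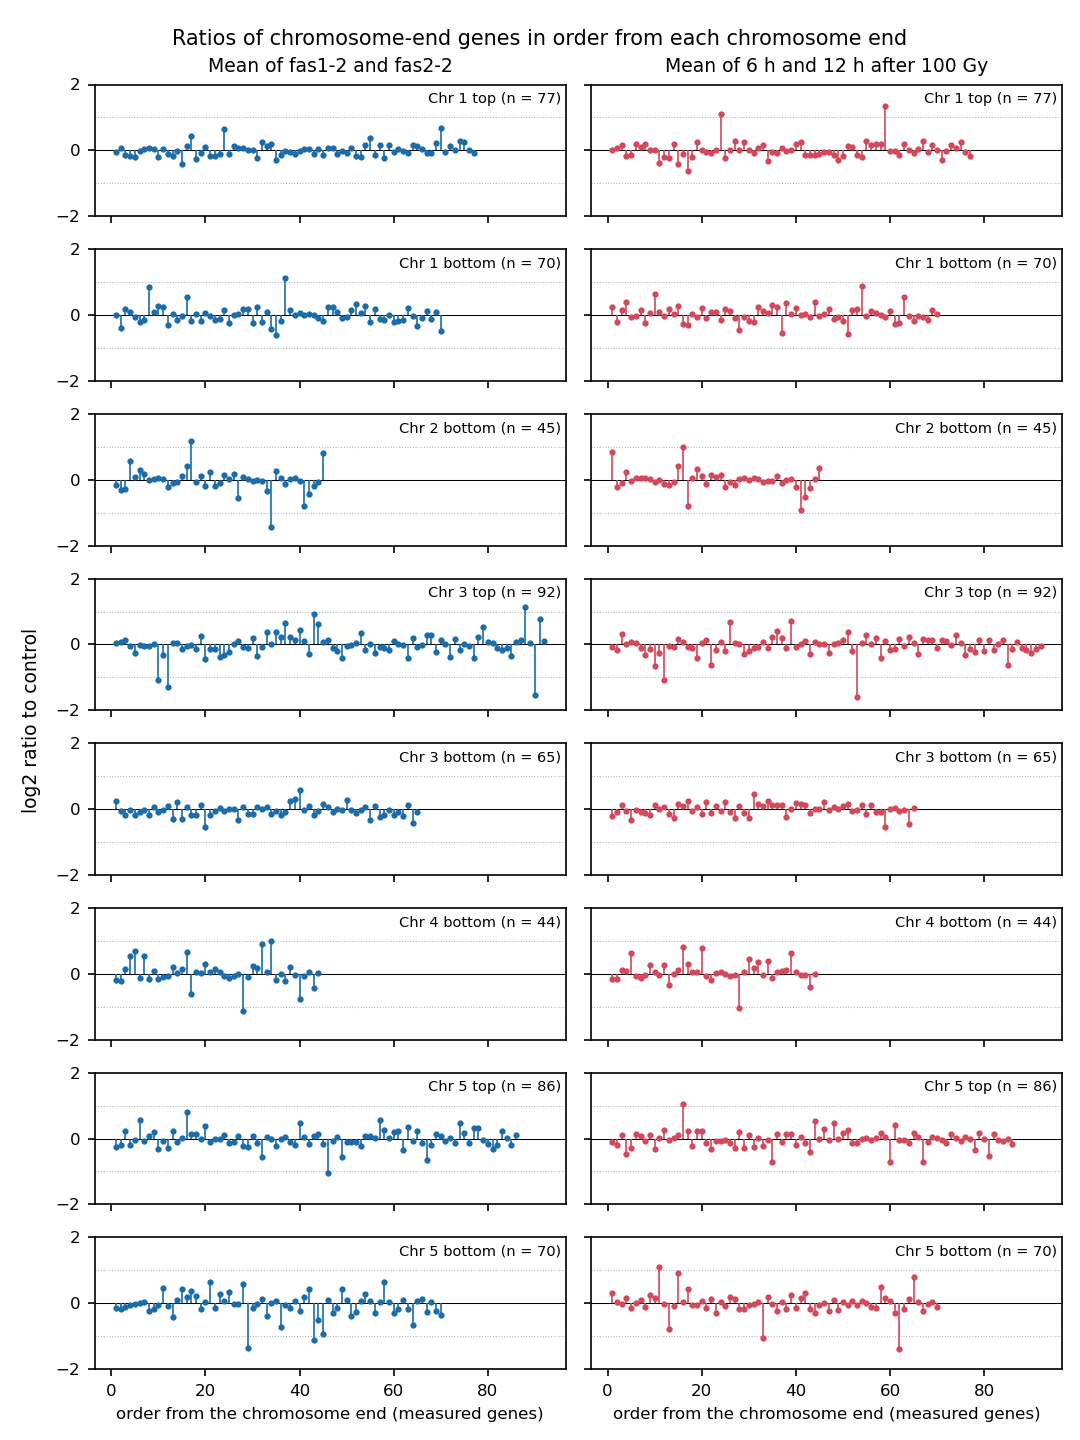
Mean log2 ratio to control (y axis) of the mutants (left) and of the irradiated arrays (right) for each measured chromosome-end gene, against its order from the end (x axis, counted in measured genes), with a row for each of the 8 ends. Points are genes and dotted lines mark 2-fold; high and low values are scattered along each row, with AT3G02900 at -1.53 and UPB1 at -1.45 the lowest in the mutants.

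The ratios of neighbouring end genes were only weakly related, as were those of other neighbours. Over 537 pairs of neighbouring measured end genes, Pearson's r across pairs was -0.01 in fas1-2, 0.07 in fas2-2, 0.07 at 6 h and -0.03 at 12 h. Over 8692 pairs of other genes it was 0.03, 0.02, 0.03 and 0.02 in the same order. The pairs of an array share that array and its dye effects, genes are not independent replicates, and no p is given. Between loci next to each other in the annotation, 213 end pairs had r of 0.00, 0.10, 0.15 and 0.02, against 0.04, 0.03, 0.07 and 0.05 for 3216 other pairs. One pair of neighbouring end genes was 2-fold from control together on an array, GH3.9 at -1.49 and AT2G47780 at 1.38 at 12 h, and its members stood on opposite sides of control. Among the 8692 pairs of other genes, 12 were so in fas1-2, 18 in fas2-2, 16 at 6 h and 6 at 12 h. The sets differ widely in size, 537 against 8692 pairs, so these raw counts are not directly comparable.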

How the data were processed

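Each array's deposited values were read as log10 of red over green, the scale of Agilent Feature Extraction, which the submitters' processing notes name; its version, background correction and dye normalization are not given in the sources used here. Multiplication by 3.32 turned them into log2 ratios. The annotation of 2007 names a single gene for 9335 of 22575 features, several for 40 and none for 13200; only the first kind was used. Of these, 9317 were matched to RefSeq genes (TAIR10.1), which gave symbols and the order of loci, and no coordinates are printed. Probes of a gene were averaged (79 genes had several, 2 of them end genes). No spot was filtered, since intensities were not used here, and exact zeros were kept.

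limma (version 3.58.1, R 4.3.3) modelled the 4 arrays with 1 mean per setting (mutants, irradiated), testing both means against 0 and testing the mutant mean minus the irradiated one. Residual degrees of freedom were 2, to which eBayes added 1.78. A call needed an adjusted p (Benjamini-Hochberg, over 9253 genes) under 0.05. The error comes from how the mutants differ and how the times differ, and the control's own spread is left out. The fit was run on simulated data with independent errors set from its own variance estimate. Such data cannot show how well 2 mutants or 2 times serve as replicates. Alternatives were centring, scaling, robust variance, zeros as missing, other member sets and leaving out each array.

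The members and lists were chosen with earlier results of these data known. Named genes were the called ones, the 8 highest and 8 lowest by the smaller value of a setting, the 3 extremes each way on an array, the 4 largest differences each way within a setting, the highest and lowest mean per end, and measured list members. Others, such as members of role groups and genes nearest the ends, were named after their values were seen. The genes named bear on a comparison and are not all that the rule gives. FAS1 and FAS2 are not reported here.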

Additional observations from a re-analysis of the deposited data

Results flagged for a closer look

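PDC3 stood on opposite sides of control in the mutants. Its ratio was 1.43 in fas2-2 and -1.17 in fas1-2, a difference of 2.59 on the log2 scale, with 1 array each, so the difference was not tested.

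AT1G80130 and GH3.9 were above control on both mutant arrays and below it on both irradiated arrays. For AT1G80130 the mutant mean minus the irradiated mean was 1.70 on the log2 scale, and limma gave an adjusted p of 0.188 for that difference. For GH3.9 it was 1.99, with a limma adjusted p of 0.284, and the irradiated values themselves were unlike, -0.11 at 6 h and -1.49 at 12 h.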

How the results depend on the processing

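Of 112 recomputed values, 94 stayed within the limits set for a change. The fas2-2 median of the end genes, -0.01 relative to all other genes, was 0.02 relative to the blocks just inside, a turn of sign in a value with no test; this setting was chosen after seeing the data. In the mutants 1 end gene was called, and 0 were with each array centred, with arrays scaled to the same spread or with robust variance. Leaving out each array gave 0 to 0 calls, with the lone array of a setting assumed to vary like the other setting. AT3G02900 was at -1.53 with zeros as missing (limma adjusted p = 0.0484). The cause was not tested. At 1.5-fold in place of 2-fold, the shares of end genes past the threshold were 7.1% in fas1-2, 9.29% in fas2-2, 8.2% at 6 h and 6.19% at 12 h, against 8.39%, 9.47%, 8.39% and 5.63% of other genes. Signal over background could not be judged without intensities, and no depth applies to arrays. No paired analysis was possible because each condition had 1 array.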

Other observations

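The tops of chromosomes 2 and 4, which the rule leaves out and where the ribosomal RNA gene arrays lie, had 102 measured genes. Their medians were 0.01 in fas1-2, -0.04 in fas2-2, 0.01 at 6 h and 0.00 at 12 h. At least 2-fold from control were 0 of them in fas1-2, 2 in fas2-2 (1.96%), 3 at 6 h (2.94%) and 0 at 12 h. Of all genes, 2.86%, 3.11%, 2.89% and 1.65% were so in the same order. Such counts are small, and the differences were not tested.

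The 4 genes taken out by the rule also stood within 1 log2 unit of control. HTR12, the histone H3 variant of centromeres, stood at 0.20 in fas1-2, 0.48 in fas2-2, -0.92 at 6 h and -0.05 at 12 h. ICU2, the catalytic subunit of DNA polymerase alpha, stood at 0.25, 0.29, -0.51 and 0.17 in the same order. LHCB4.1, an antenna protein of photosystem II, stood between -0.31 and 0.10, and AT4G40040 between 0.01 and 0.24.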
